A study of Mus musculus with 24 samples.

Results

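Serglycin is the proteoglycan that fills mast cell granules, and heparin is the sulfated chain it carries there. Its core protein and the enzymes that build and sulfate heparin were followed through 9 genes, Srgn, Ext1, Ext2, Ndst1, Ndst2, Glce, Hs2st1, Hs6st1 and Hs3st1, taken by gene symbol from a table of 55385 genes. Of these, 7 had at least 1 FPKM (fragments per kilobase, scaled to library depth) in 3 or more libraries and were tested together with all 12183 genes that met that level; Ext1 and Hs3st1 did not. P815 is a mouse mastocytoma line, and RNA from 8 groups of 3 libraries was sequenced to compare cells with and without estrogen. The SH_E2 cells received a vector with a short hairpin RNA against Esr1, the gene of estrogen receptor alpha, and β-estradiol (E2) for 24 h, and the SH cells received the hairpin without E2. The ICI_E2 and Tamo_E2 cells received the antiestrogen ICI-182780 or tamoxifen together with E2 for 24 h, and the ICI and Tamo cells received the inhibitor alone for 24 h. The NC_E2 cells received a negative control vector and E2 for 24 h, and the NC cells received that vector without E2. No time is labelled for SH and NC, no dose is labelled for any agent, and no vehicle or untransfected group is labelled. No vector is labelled for the inhibitor groups, and when they are set against NC the inhibitor and the vector cannot be told apart. No other hairpin against Esr1 is labelled. When SH is set against NC, the hairpin's action on Esr1 and any other difference between the hairpin and vector cells cannot be told apart. The labels do not say that the 3 libraries of a group were separate cultures, and p-values therefore cover only the spread among these libraries, which may be of technical origin.

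Heparin and its relative heparan sulfate start as a short sugar linker on serines of a core protein. The EXT polymerase lengthens the chain, the NDST enzymes replace acetyl groups with sulfate, the epimerase turns glucuronic into iduronic acid, and O-sulfotransferases finish the pattern. In mouse mast cells serglycin and NDST2 are known to be needed for heparin and for storing positively charged proteases in the granules.

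Serglycin carries its chains on a run of alternating serine and glycine, and that run is shown because it is what makes the core protein a substrate for the enzymes described here. The stretch lies in exon 3 of 3 of Srgn at chr10:62494974-62495081 on the minus strand of GRCm38, taken from the GENCODE M21 transcript, with the 60 bases of 10 uninterrupted Ser-Gly codon pairs in capitals.
Srgn coding stretch: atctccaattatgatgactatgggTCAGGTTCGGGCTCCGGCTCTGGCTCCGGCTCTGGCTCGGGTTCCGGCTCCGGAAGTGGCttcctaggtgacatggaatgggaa

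The 250 bases before the start of Srgn that is nearer its coding exons, and before the start of Hs2st1, are shown because these genes moved in opposite directions in the hairpin cells. Both come from RefSeq on GRCm38.p6, minus strand, at chr10:62507758-62508007 for Srgn and chr3:144570217-144570466 for Hs2st1. Capitals mark matches on either strand to 4 motifs, the cyclic AMP response element half-site TGACG, the AP-1 motif TGANTCA, the GC box GGGCGG and the E-box CACGTG.
Srgn promoter: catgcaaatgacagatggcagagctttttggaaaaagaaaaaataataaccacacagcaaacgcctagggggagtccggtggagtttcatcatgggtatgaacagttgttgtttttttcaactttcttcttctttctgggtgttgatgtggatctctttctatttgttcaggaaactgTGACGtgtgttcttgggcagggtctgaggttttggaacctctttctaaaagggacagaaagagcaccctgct
Hs2st1 promoter: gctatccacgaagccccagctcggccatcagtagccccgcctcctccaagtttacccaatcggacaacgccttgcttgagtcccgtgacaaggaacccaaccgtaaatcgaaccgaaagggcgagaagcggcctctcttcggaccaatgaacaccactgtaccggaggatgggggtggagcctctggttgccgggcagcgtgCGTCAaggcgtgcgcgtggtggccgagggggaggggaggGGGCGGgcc
The Srgn window holds 1 match to TGACG and no match to the other motifs. The Hs2st1 window holds 1 match to TGACG, read on the other strand, and 1 GC box, and no matches overlap. TGACG is present in 17.8% and GGGCGG in 32.7% of 32851 RefSeq windows of the same length, and TGANTCA and CACGTG are present in 6.75% and 6.02%. These matches are a description of the letters.

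The libraries held 42.1 to 68.8 M estimated counts (median 54.2). Esr1, the hairpin's target, was low at 0.161 to 0.520 FPKM in all libraries and averaged 0.246 FPKM in the 6 SH and SH_E2 libraries and 0.328 FPKM in the 6 NC and NC_E2 libraries (exact permutation test stratified by E2, two-sided, p = 0.125, smallest possible 0.005). Of 12 mast cell markers, 9 averaged at least 1 FPKM. The sum of all 12 was 997 to 1222 FPKM in the SH arm, against 788 to 1065 FPKM in the other libraries. This sum follows the most abundant markers and does not describe each one. Against the vector control, over both E2 conditions, Cpa3 was higher (log2 fold change 1.18). Srgn (-0.72), Cma1 (-0.52), Tpsab1 (-2.60) and Tpsb2 (-3.37) were lower, with limits given below. Hdc (0.20) did not pass in the main fit. Directions of the other mast cell markers are not given here, so the markers named do not stand for the whole list. None of the markers of T cells (5), B cells (4), macrophages (4) or fibroblasts (4) averaged 1 FPKM. Their sums in the SH arm and in the other libraries stayed at or under 0.256 and 0.385 FPKM for T cells, 0.192 and 0.251 for B cells, 1.92 and 1.27 for macrophages, and 1.24 and 2.29 for fibroblasts. Replicate 1 differed from replicates 2 and 3 across the series, with 44.1% of the genes tested passing edgeR's test at an adjusted p under 0.05, and values are given by replicate for that reason. Below, "SH arm" means SH_E2 and SH together, and "NC arm" means NC_E2 and NC together. Where groups or arms are said not to overlap, the share of all genes without overlap is not given. Such statements only describe the gene named.

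Levels in FPKM, which are scaled by length and can be compared between genes, spanned a wide range. Srgn was highest with a mean of 135 FPKM over the 24 libraries. Ndst2, the mast cell N-sulfotransferase, followed at 61.6 FPKM, and Hs6st1, a 6-O-sulfotransferase, at 51.5 FPKM. Ext2, a subunit of the chain polymerase, averaged 8.67 FPKM. Ndst1, the widely expressed N-sulfotransferase, averaged 6.37 FPKM, Glce, the epimerase, 5.73 FPKM, and Hs2st1, which adds sulfate to the 2-O position of iduronic acid, 5.01 FPKM. Ndst2 exceeded Hs6st1 in 24 of 24 libraries although their means differ by a factor of 1.198. The lower neighbours did not keep one order. Ndst1 exceeded Glce in 12 of 24 libraries, including 6 of 6 in the SH arm, and Glce exceeded Hs2st1 in 18 of 24, but in 1 of 6 in the SH arm. Ext2 exceeded Ndst1 in 22 of 24 libraries and in 4 of 6 in the SH arm.

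**Figure D1:**
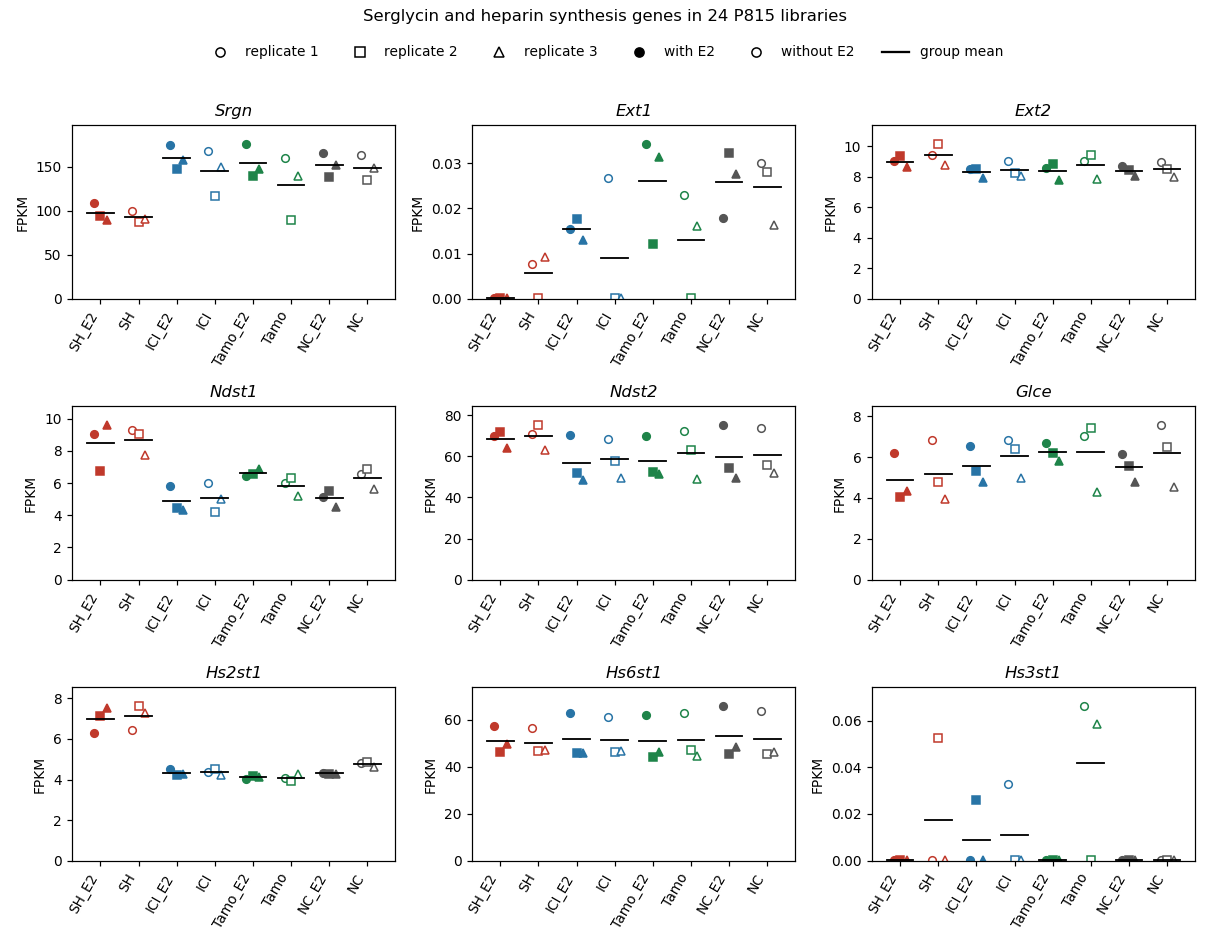
FPKM (linear axis from 0, a separate scale in each panel) of the 9 genes in each of the 24 libraries, by group, with a bar at the mean of 3 libraries; marker shape gives the replicate number, and filled markers are libraries with E2. Srgn lies at 87.1 to 109 FPKM in the SH arm, against 135 to 165 FPKM in the NC arm, while Hs2st1 lies at 6.28 to 7.63 FPKM in the SH arm, against 3.90 to 4.84 FPKM in the other 18 libraries.

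Ext1, the other polymerase subunit, was at the limit of detection. It had 0 to 6 estimated counts in the SH arm, with 4 of 6 libraries at 0, and 10 to 15 in the NC arm, so these 12 libraries did not overlap. The inhibitor arms had 0 to 17 estimated counts. Low counts in these files pile up at multiples of 4, so a read pair may be counted up to 4 times, which the files do not settle. On that reading 12 estimated counts are about 3 read pairs, the level that a count of 0 cannot exclude, and neither a fold change nor a test is given for Ext1. Hs3st1, a 3-O-sulfotransferase, had 0 to 8 estimated counts and was at 0 in 19 of 24 libraries.

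The hairpin cells were set against the vector control first without E2. Srgn fell and Hs2st1 rose in SH, and these 2 of the 7 genes tested passed edgeR's quasi-likelihood test at a Benjamini-Hochberg adjusted p under 0.05 (all genes, 9.07%, with 600 or 4.92% higher and 505 or 4.15% lower; limma on log2(FPKM + 1) gave 771 higher and 413 lower). Srgn had 99.4, 87.1 and 90.3 FPKM in SH, against 163, 135 and 149 FPKM in NC. All 3 SH libraries lay below all 3 NC libraries, with means of 92.3 ± 6.40 FPKM in SH and 149 ± 14.2 FPKM in NC (SD, n = 3 each). The log2 fold change was -0.75 ± 0.17 (SE; edgeR adjusted p = 0.00607). In bulk RNA, fewer cells with serglycin and less serglycin RNA per cell cannot be told apart.

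Hs2st1 had 6.44, 7.63 and 7.29 FPKM in SH, against 4.81, 4.84 and 4.61 FPKM in NC. The groups did not overlap, and the log2 fold change was 0.53 ± 0.09 (edgeR adjusted p = 0.000801). With the 6 libraries of this comparison fitted alone, Hs2st1 had a log2 fold change of 0.53 and an edgeR adjusted p of 0.0559, and the number of genes passing among the 7 was 1. Ndst1 had 9.29, 9.02 and 7.77 FPKM in SH, against 6.54, 6.84 and 5.62 FPKM in NC. The groups did not overlap, but at a log2 fold change of 0.40 ± 0.14 Ndst1 missed the threshold (edgeR adjusted p = 0.101). With the replicate number as a block, since same-numbered libraries deviate together here, its log2 fold change was 0.40 and it passed (edgeR adjusted p = 0.0409).

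The same comparison in the presence of E2 gave 3 of 7 genes past the threshold (all genes, 9.59%, with 646 or 5.3% higher and 522 or 4.28% lower; limma on log2(FPKM + 1) gave 780 higher and 410 lower). Srgn had 109, 94.2 and 89.7 FPKM in SH_E2, against 165, 138 and 151 FPKM in NC_E2. The groups did not overlap, and the log2 fold change was -0.69 ± 0.17 (edgeR adjusted p = 0.0112). Without SH_E2 replicate 3 the log2 fold change was -0.63 and Srgn missed the threshold (edgeR adjusted p = 0.0516). On replicates 2 and 3 alone it was -0.71 and missed it as well (edgeR adjusted p = 0.0580).

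Hs2st1 had 6.28, 7.15 and 7.54 FPKM in SH_E2, against 4.33, 4.30 and 4.30 FPKM in NC_E2. Every SH_E2 library was higher, with a log2 fold change of 0.65 ± 0.09 (edgeR adjusted p = 0.000114). Ndst1 had 9.05, 6.76 and 9.61 FPKM in SH_E2, against 5.14, 5.49 and 4.52 FPKM in NC_E2. The groups did not overlap although SH_E2 replicate 2 lay well below the other two, and the log2 fold change was 0.69 ± 0.14 (edgeR adjusted p = 0.00354). On replicates 2 and 3 alone Ndst1 had a log2 fold change of 0.66 (edgeR adjusted p = 0.0602), and with the 6 libraries of this comparison alone 0.70 (edgeR adjusted p = 0.0530).

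Over both E2 conditions, Srgn fell by 39.2% with a log2 fold change of -0.72 ± 0.12 (edgeR adjusted p = 0.000166). Hs2st1 rose, with a log2 fold change of 0.59 ± 0.07 (edgeR adjusted p = 2.04e-06), and Ndst1 rose, with 0.55 ± 0.10 (edgeR adjusted p = 0.000582). These 3 of 7 genes stand beside 20.7% of all genes tested, of which 1295 (10.6%) were higher and 1222 (10%) lower, or 1662 and 947 by limma on log2(FPKM + 1). In the 3 same-numbered pairs of SH with NC, Srgn was lower and Hs2st1 and Ndst1 were higher. The 3 pairs of SH_E2 with NC_E2 had the same directions. There the deviations of same-numbered libraries from their group means correlated more weakly, at r = 0.33, 0.097 and 0.12. Replicate 2 thus fell just under the 0.1 used here for pairing. The difference of the SH effect with E2 from that without E2 passed for none of the 7 genes. For Srgn that difference was 0.06 ± 0.24 on the log2 scale (95% interval -0.43 to 0.55), and for Ndst1 0.30 ± 0.20 (-0.13 to 0.72).

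**Figure D2:**
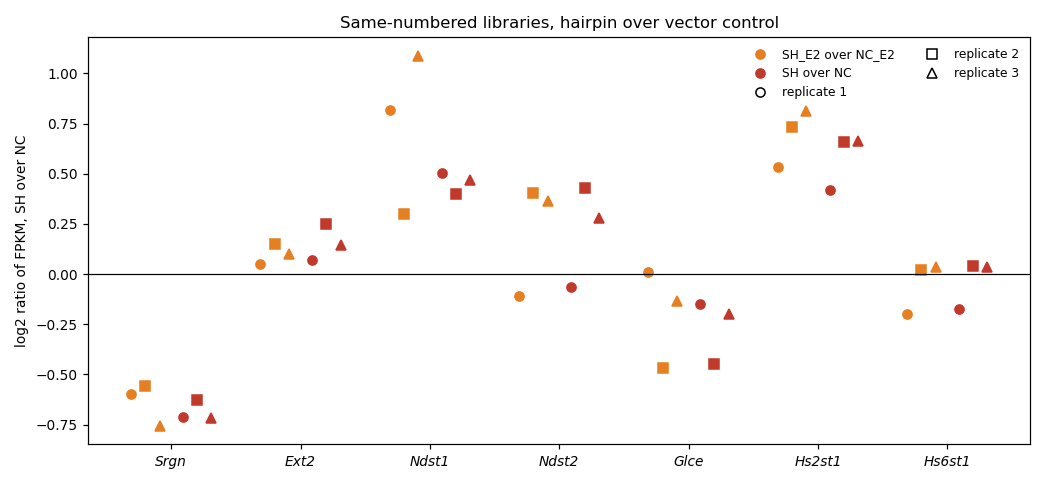
log2 ratio of FPKM between same-numbered libraries, SH_E2 over NC_E2 (orange, left) and SH over NC (red, right), for the 7 genes tested; marker shape gives the replicate number. All 6 Srgn ratios lie below 0, from -0.76 to -0.56, and all 6 ratios of Hs2st1, Ndst1 and Ext2 lie above 0. FPKM ratios lie slightly higher for all genes, with a median of 0.041 over both E2 conditions by limma on log2(FPKM + 1). On scaled counts that median was -0.0038, and Ext2 had 0.07 ± 0.06 and did not pass.

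The other 4 genes did not pass in these comparisons. Ndst2 had 63.0 to 75.3 FPKM in the SH arm (median 70.3), against 49.7 to 75.2 FPKM in the NC arm (median 55.2). The overlap lay in replicate 1. Replicate 1 had 69.8 and 70.7 FPKM in the SH arm and 68.4 to 75.2 FPKM in the other arms, while replicates 2 and 3 had 63.0 to 75.3 FPKM in the SH arm and 48.4 to 63.0 FPKM in the others. The log2 fold change over both E2 conditions was 0.15 ± 0.13 (edgeR adjusted p = 0.482), and on replicates 2 and 3 alone 0.32 ± 0.09 (edgeR adjusted p = 0.0384). Ndst2 stayed above Ndst1 in 24 of 24 libraries. Their FPKM ratio was 6.66 to 10.6 in the SH arm (median 7.91), against 8.18 to 14.6 in the NC arm (median 10.5).

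Glce had 3.96 to 6.84 FPKM in the SH arm, against 4.55 to 7.57 FPKM in the NC arm. The ranges overlapped, and the log2 fold change over both E2 conditions was -0.28 ± 0.16 (edgeR adjusted p = 0.253). With the replicate block the value was -0.28 ± 0.09 and Glce passed (edgeR adjusted p = 0.0214). In SH_E2 against NC_E2, replicate 2 fell just under the correlation of 0.1 used for pairing (r = 0.097). Ext2 had 8.62 to 10.2 FPKM in the SH arm, against 7.97 to 8.98 FPKM in the NC arm, a log2 fold change of 0.07 ± 0.06 (95% interval -0.05 to 0.20). Hs6st1 had 46.2 to 57.4 FPKM in the SH arm, against 45.4 to 65.9 FPKM in the NC arm, a log2 fold change of -0.11 ± 0.13 (95% interval -0.38 to 0.16). Neither gene passed, and the sign for Hs6st1 turned when 1 control library was left out (0.07 without NC replicate 1 for SH against NC, and 0.06 without NC_E2 replicate 1 for SH_E2 against NC_E2).

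The SH arm was also set against the inhibitor arms, using the same SH libraries. No vector is labelled for the inhibitor groups, so hairpin, vector and inhibitor cannot be told apart in this comparison. Against the 12 ICI and Tamo libraries, with and without E2, the SH arm had 3 of 7 genes past the threshold (all genes, 28.2%). The log2 fold change was -0.69 ± 0.11 for Srgn (edgeR adjusted p = 4.86e-05), 0.68 ± 0.06 for Hs2st1 (edgeR adjusted p = 2.02e-08) and 0.56 ± 0.09 for Ndst1 (edgeR adjusted p = 5.23e-05). Hs2st1 was the only one of the 3 whose SH arm lay apart from all 18 other libraries. The share of all genes tested that lie apart in this way is not given here, so this is a description. For Srgn, Tamo replicate 2 at 89.1 FPKM fell inside the SH arm's range, and for Ndst1 the highest of the other libraries, at 6.89 FPKM, exceeded SH_E2 replicate 2 at 6.76 FPKM.

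**Figure D3:**
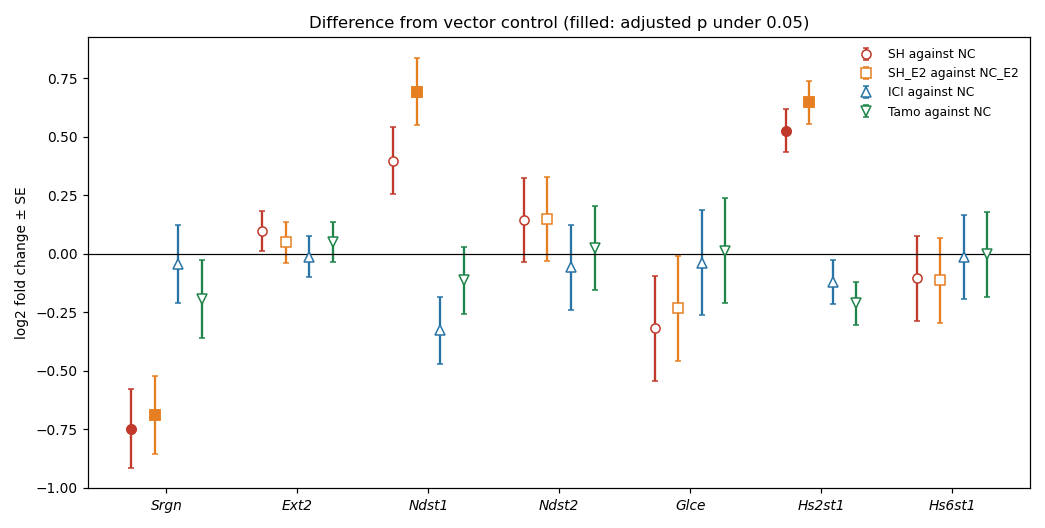
log2 fold change with SE for the 7 genes tested, for SH against NC, SH_E2 against NC_E2, ICI against NC and Tamo against NC; filled markers passed at an edgeR adjusted p under 0.05, and the 3 comparisons without E2 share the NC libraries. Srgn lies at -0.75 and -0.69 in the hairpin comparisons, and no gene passed in the 2 inhibitor comparisons.

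Neighbouring genes on the chromosome moved with Hs2st1. Hs2st1 lies on chromosome 3 (144429706 to 144570181, minus strand, GRCm38), and 23.5% of the 597 genes tested on that chromosome were higher in the SH arm than in the NC arm over both E2 conditions, against 10.6% of all genes. Within 10 Mb of Hs2st1, 32 of 59 genes tested were higher and 3 lower, with a median log2 fold change of 0.50. The part of this regional shift in the Hs2st1 difference was not tested. Srgn lies on chromosome 10 (62493833 to 62527451, minus strand). Of 67 genes tested within 10 Mb of it, 7 (10.4%) were higher and 4 (5.97%) lower. Ndst1 lies on chromosome 18 (60684494 to 60748650, minus strand). Of 69 genes within 10 Mb of it, 7 (10.1%) were higher and 9 (13.0%) lower. Among all genes, 10.6% were higher and 10% lower.

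Estradiol was examined in each of the 4 arms, and none of the 7 genes passed in any of them. Among all genes, edgeR passed 0 (0%) in each arm, with 163 in SH, 224 in ICI, 434 in Tamo and 244 in NC at an unadjusted p under 0.05, and 7 over the 4 arms (0.0575%). DESeq2 passed 2 to 10 genes in the 4 arms, none of them among the 7. The 28 log2 fold changes ran from -0.33 to 0.25, and their 95% intervals reached from -0.65 to 0.60. In 11 of 12 same-numbered pairs Srgn was the higher in the library with E2, and the share of all genes with such a count is not given. The log2 difference over the 4 arms was 0.13 ± 0.08 and failed the correction (edgeR without pairing, unadjusted p = 0.142, adjusted p = 0.999999). With the replicate block it was 0.14 ± 0.06 and failed as well (edgeR adjusted p = 0.844). The largest E2 difference of Srgn was in tamoxifen-treated cells, with 176, 139 and 147 FPKM in Tamo_E2, against 160, 89.1 and 139 FPKM in Tamo. The groups overlapped, and the log2 fold change was 0.25 ± 0.17, or 0.03 without Tamo replicate 2.

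Ndst1 had the lowest of these values. It had 5.14, 5.49 and 4.52 FPKM in NC_E2, against 6.54, 6.84 and 5.62 FPKM in NC. The groups did not overlap, and the log2 fold change of -0.33 ± 0.14 failed the correction (unadjusted p = 0.0334, edgeR adjusted p = 0.9998). In tamoxifen-treated cells Ndst1 had 6.47, 6.56 and 6.89 FPKM in Tamo_E2, against 6.004, 6.33 and 5.18 FPKM in Tamo, a log2 fold change of 0.19 ± 0.14 that did not pass. Hs2st1 kept within 0.15 of 0 on the log2 scale in all 4 arms, with -0.02 ± 0.09 in SH and -0.14 ± 0.09 in NC. In NC it was lower with E2 in 3 of 3 pairs, at 4.30 to 4.33 FPKM in NC_E2, against 4.61 to 4.84 FPKM in NC, and these groups did not overlap, but the difference failed the correction (unadjusted p = 0.132, edgeR adjusted p = 0.9998).

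**Figure D4:**
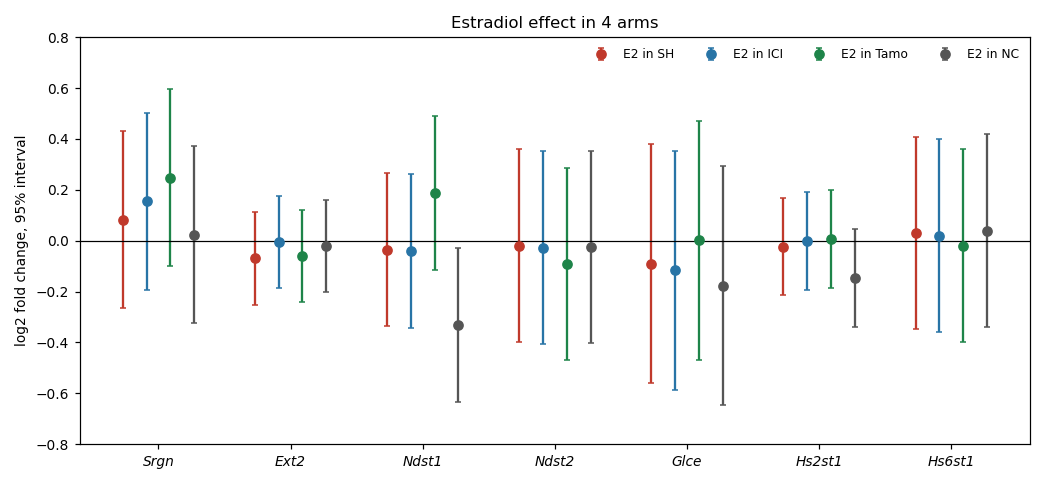
log2 fold change with E2 over without E2, with its 95% interval, for the 7 genes tested in the SH, ICI, Tamo and NC arms (3 libraries against 3 in each). The values run from -0.33 for Ndst1 in NC to 0.25 for Srgn in Tamo, and none passed at an edgeR adjusted p under 0.05.

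The inhibitors themselves were compared with NC in the absence of E2, with NC_E2 in its presence, and with each other. None of the 7 genes passed in these 5 comparisons, where at most 0.00821% of all genes passed, and the log2 fold changes ran from -0.33 to 0.40. Values with an unadjusted p under 0.05 were those of Ndst1 in ICI against NC (-0.33 ± 0.14), Ndst1 in Tamo_E2 against NC_E2 (0.40 ± 0.14) and Hs2st1 in Tamo against NC (-0.21 ± 0.09), each with an edgeR adjusted p of 0.9998 or more. Srgn had 168, 117 and 150 FPKM in ICI and 174, 147 and 158 FPKM in ICI_E2, ranges that overlap those of NC and NC_E2.

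The genes around these 9 in the pathway were counted for SH against NC over both E2 conditions, where the median log2 fold change was 0.07 for the 7 genes above and -0.0038 for all genes tested. Of all genes tested, 20.7% passed, 10.6% higher and 10% lower, and the counts below are to be read against these shares. Of the enzymes of the linker to the core protein, 5 were tested, 0 were higher and 1 lower (all genes, 10.6% and 10%), with a median of -0.16. The lower one was B4galt7, which adds the linker's first galactose and was chosen after its values were seen (-0.37 ± 0.09, edgeR adjusted p = 0.00533), and it was not past the threshold on replicates 2 and 3 alone (-0.27, edgeR adjusted p = 0.141). The linker's glucuronic acid transferase B3gat3 had a log2 fold change of -0.16 ± 0.08. The xylose kinase Fam20b had 0.26 ± 0.10 (edgeR adjusted p = 0.0628) and passed in 7 of 33 alternatives, including the replicate block (edgeR adjusted p = 0.00802).

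Of the other heparan sulfate chain enzymes, 4 were tested, 1 was higher and 1 lower (all genes, 10.6% and 10%), too few to set apart from that background. Extl3, which adds the first glucosamine that commits a chain to heparan sulfate, had 9.29 to 14.8 FPKM in the SH arm, against 6.26 to 8.41 FPKM in the NC arm. The arms did not overlap, and Extl3 rose, with a log2 fold change of 0.73 ± 0.12 (edgeR adjusted p = 0.000196). Hs6st2, a paralogue of Hs6st1, had 13.4 to 15.7 FPKM in the SH arm, against 19.7 to 25.3 FPKM in the NC arm. The arms did not overlap here either, with a log2 fold change of -0.60 ± 0.09 (edgeR adjusted p = 8.69e-05).

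Chondroitin sulfate is built on the same linker, and serglycin can carry it too. Of its enzymes, 7 were tested, 0 were higher and 4 lower (all genes, 10.6% and 10%), with a median log2 fold change of -0.27. Csgalnact2, which adds the first galactosamine of a chondroitin chain, had 8.14 to 10.5 FPKM in the SH arm, against 14.8 to 18.5 FPKM in the NC arm. Csgalnact2 fell, with a log2 fold change of -0.91 ± 0.08 (edgeR adjusted p = 2.01e-07), with no overlap of the arms. Chsy1, a chondroitin polymerase, had a log2 fold change of -0.59 ± 0.10 (edgeR adjusted p = 0.000162). The other two, chosen after their values were seen, were the 4-O-sulfotransferases Chst12 (-0.72 ± 0.16) and Chst11 (-0.27 ± 0.08). Chst12 missed the threshold on replicates 2 and 3 alone (-0.60, edgeR adjusted p = 0.0608). Chst11 missed it in 10 of 33 alternatives, among them leaving out replicate 1 of SH, SH_E2, NC or NC_E2 or replicate 2 of NC or NC_E2, where the edgeR adjusted p was 0.0538 to 0.0913.

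The supply of sulfate and sugar donors had 10 genes tested, 1 higher and 1 lower, which is the background share in each direction (all genes, 10.6% and 10%). Slc35b2, the transporter of the sulfate donor into the Golgi, rose, with a log2 fold change of 0.26 ± 0.06 (edgeR adjusted p = 0.00353). Papss1, which makes that donor, had 0.14 ± 0.06 (edgeR adjusted p = 0.106). It passed in 4 of 33 alternatives, which were DESeq2, both limma fits and the replicate block (edgeR adjusted p = 0.0357 with the block). The lower gene was Impad1 (-0.22 ± 0.06), chosen after its values were seen, which missed the threshold by limma (-0.15 on log2(FPKM + 1)) and on replicates 2 and 3 alone (edgeR adjusted p = 0.0696). Of the genes counted here that trim or break down heparan sulfate, 6 were tested, 1 was higher and 0 lower, a share near the background (all genes, 10.6% and 10%). The higher one was the sulfamidase Sgsh, chosen after its values were seen, with 1.07 ± 0.27, or 0.52 by limma on log2(FPKM + 1). All its NC arm libraries lay under the 1 FPKM filter, so it was tested only because of its level in other libraries. Its direction is a description without support from the test. The glucuronidase Gusb had -0.05 ± 0.11.

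Other core proteins were scarce, and 3 of 17 reached the filter. Gpc5, a glypican, had 0.135 to 0.375 FPKM in the SH arm, against 0.765 to 1.94 FPKM in the NC arm, a log2 fold change of -2.62 ± 0.39, or -0.85 by limma on log2(FPKM + 1). Hspg2, which encodes perlecan, had 0.628 to 0.992 FPKM in the SH arm, against 1.34 to 1.85 FPKM in the NC arm, a log2 fold change of -1.06 ± 0.17, or -0.52 by limma. Every SH arm library of both genes lay under 1 FPKM, so they were tested only because of their level in other libraries, and their direction is a description without support from the test. The third, Agrn (agrin), chosen after its values were seen, had 0.29 ± 0.15 and did not pass.

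**Figure D5:**
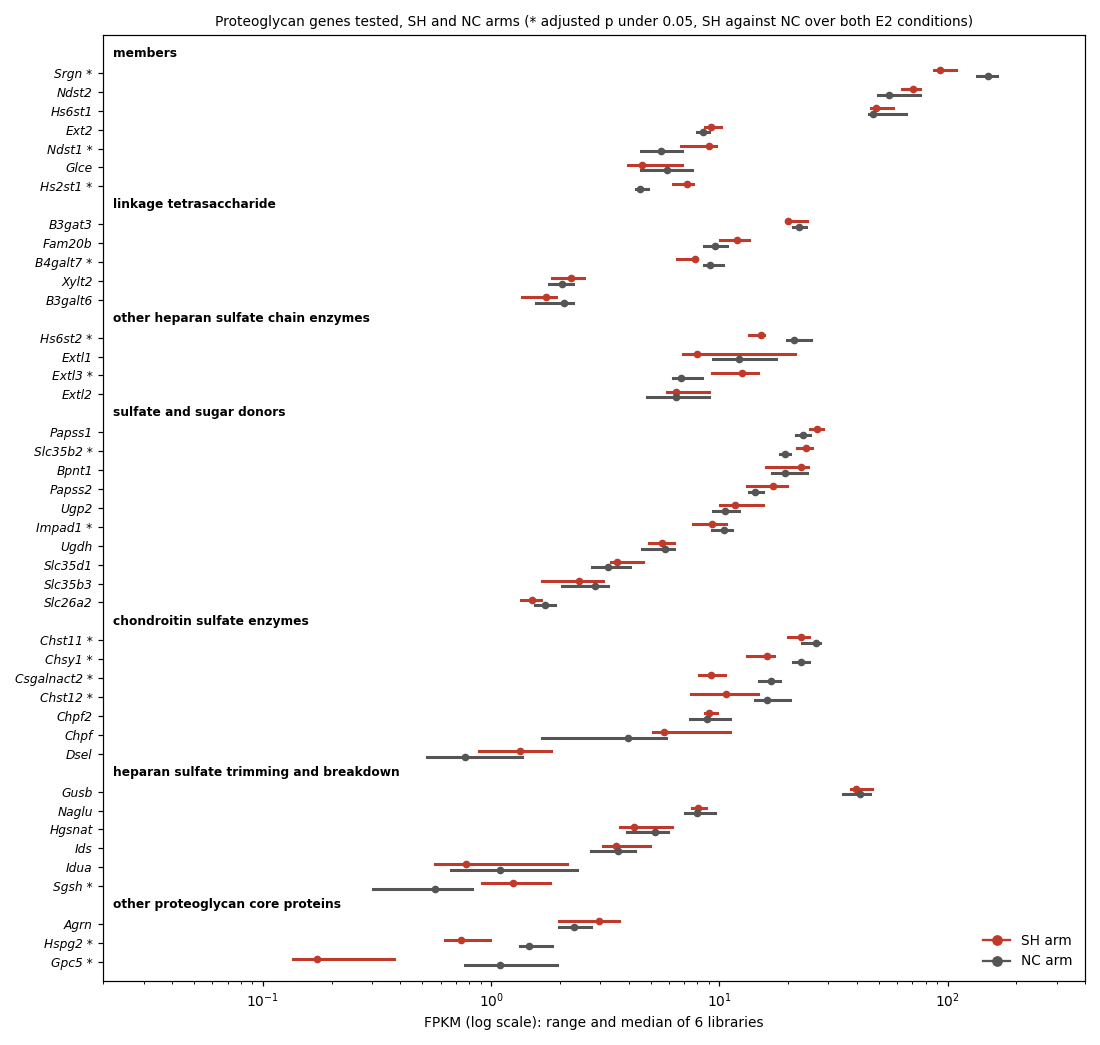
FPKM on a log axis of the proteoglycan genes tested, grouped by step, with the range (line) and median (point) of the 6 SH arm libraries above those of the 6 NC arm libraries; an asterisk marks an edgeR adjusted p under 0.05 over both E2 conditions. Srgn has the highest level of these genes, and the 4 marked chondroitin sulfate enzymes all lie lower in the SH arm. Gpc5, Hspg2 and Sgsh are marked too, but they were tested only because of their level in other libraries. For them the asterisk gives no support for the direction.

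Granule cargo genes, here proteases, the histamine-making enzyme Hdc and the amine transporter Slc18a2, moved in both directions, with 10 tested, 4 higher and 4 lower (all genes, 10.6% and 10%). Serglycin is known to hold several of the proteases in granules. Cpa3, carboxypeptidase A3, had 463 to 586 FPKM in the SH arm, against 183 to 306 FPKM in the NC arm, and rose, with a log2 fold change of 1.18 ± 0.19 (edgeR adjusted p = 0.000166). Mcpt2, a mast cell protease, had 10.97 to 28.8 FPKM in the SH arm, against 4.61 to 8.73 FPKM in the NC arm, and rose, with 1.63 ± 0.20 (edgeR adjusted p = 7.62e-06). Gzmb, granzyme B, had 2.57 to 9.65 FPKM in the SH arm, against 65.1 to 88.7 FPKM in the NC arm, a log2 fold change of -3.75 ± 0.21 (edgeR adjusted p = 2.18e-10). The tryptases Tpsab1 and Tpsb2 had -2.60 ± 0.34 and -3.37 ± 0.50, or -1.55 and -0.74 by limma on log2(FPKM + 1). All SH arm libraries of Tpsb2 were under the 1 FPKM filter, so it was tested only because of its level in other libraries. Its direction, counted among the 4 lower, is a description without support from the test. Since the tryptases are close copies, their reads may be split between them. Mcpt8 (1.73 ± 0.27) and Ctsg (0.87 ± 0.17) were the other higher genes and Cma1 (-0.52 ± 0.18) the other lower one, all chosen after their values were seen. Cma1 missed the threshold in 22 of 33 alternatives. Slc18a2, also named after its values were seen, had -0.27 ± 0.13 and did not pass. Hdc had 0.20 ± 0.07 (edgeR adjusted p = 0.0630). It passed in 6 of 33 alternatives, including DESeq2 (adjusted p = 0.0434), both limma fits and the replicate block (edgeR adjusted p = 0.0299). None of the 52 tested genes of these lists passed in the E2 or inhibitor comparisons.

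The genes whose pattern over the 24 libraries was most like that of Srgn were sought among 9955 protein-coding genes by Pearson's r of TMM-scaled log2 CPM (counts scaled to library size). They were Gskip (r = 0.957), Fxr1 (0.954), Vmp1 (0.951), Mrps33 (0.949) and Pabpc1 (0.949). With the mean of each replicate number removed, they ranked 13, 23, 18, 43 and 22, so the order among the most similar genes depends on the replicate shift. For Hs2st1 they were Msh6 (0.962), Wfdc12 (0.958), Clybl (0.953), Rnf115 (0.952) and Pdlim5 (0.951), of which Rnf115 and Pdlim5 also lie on chromosome 3, and with replicate means removed they ranked 9, 8, 14, 17 and 34. For Ndst1 they were Cyth3 (0.882), Fbxo10 (0.867), Igf2r (0.865), Slc2a9 (0.850) and Trps1 (0.843), which ranked 3, 4, 5, 13 and 10 with replicate means removed. The 24 points share their arms and replicate numbers, so these values describe the libraries. Between the members, r was -0.78 for Srgn with Hs2st1, -0.63 for Srgn with Ndst1 and 0.69 for Ndst1 with Hs2st1.

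Replicate number also moved with several of the genes. In replicate 1 against replicates 2 and 3, 4 of 7 passed, beside 44.1% of all genes. Hs6st1 had 56.5 to 57.4 FPKM in replicate 1 of the SH arm and 61.4 to 65.9 FPKM in replicate 1 of the other arms, against 46.2 to 49.7 FPKM and 44.1 to 48.4 FPKM in replicates 2 and 3. The log2 difference was 0.38 ± 0.03 for Hs6st1 (edgeR adjusted p = 2.99e-08), 0.36 ± 0.07 for Glce, 0.32 ± 0.05 for Ndst2 and 0.24 ± 0.06 for Srgn, and Hs2st1 (-0.07 ± 0.04) and Ndst1 (0.13 ± 0.07) did not pass. Strand was not stated for the libraries, and 8.07% of the exonic bases of Hs6st1 lie under Gm37335 on the opposite strand, so reads there cannot be assigned. Glce shares 1.13% of its exonic bases with Mir5133.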

How the data were processed

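RNA was measured in 24 P815 libraries, 3 in each of 8 groups taken from the sample labels. The submitters' processing notes name cutadapt, HISAT2 and GRCm38 without versions. How genes were quantified is not given in the sources used here. Per the file headers, the authors deposited FPKM values and a count for each gene. The deposited counts were handled like expected counts, that is, estimated by the authors, because 38.3% of values from 1 to 40 are divisible by 4, and a count of 12 was taken as about 3 read pairs. Coordinates of the 9 genes match GENCODE M21.

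Genes with 1 FPKM or more in at least 3 libraries were tested (12183 of 55385) on rounded counts with TMM scaling in edgeR 4.0.16 (R 4.3.3) by a two-sided quasi-likelihood test, with all libraries in the fit and 1 coefficient for each group. The Benjamini-Hochberg adjustment ran over all genes tested, with a threshold of 0.05. Fold changes come from scaled counts and FPKM values are the authors'. Alternatives were DESeq2 1.42.0, RLE size factors, no FPKM filter, limma 3.58.1 on log2(FPKM + 1) and log2(FPKM + 0.1), counts divided by 4, the replicate block, replicates 2 and 3 alone, the libraries of a comparison alone, and leaving out each library. The comparisons of the SH arm with the ICI and Tamo arms and of replicate 1 with replicates 2 and 3, and the window of 10 Mb, were added after seeing the data. The code was tested on simulated data. Same-numbered libraries had correlated deviations above 0.1 in all 3 pairs in 9 of 11 comparisons (0.0949 to 0.472 over all pairs). SH_E2 against NC_E2 and ICI_E2 against NC_E2 fell short of this. The main fit did not use the pairing, and its SE and p-values ignore the replicate number. Pairing entered only through the replicate block, which was fitted to every comparison, and through the counts and ratios of same-numbered pairs. Members and lists were chosen with earlier results of these data known. Named genes were the 9 members, Esr1, Cpa3, Gzmb and Hdc, up to 4 genes of each other list that passed in SH against NC or else its 2 highest, and the 5 genes most like each member that passed over both E2 conditions. A further gene is not reported here and was left out of the list counts, though not out of the fit. Amino acid sequences were not used here.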

Additional observations from a re-analysis of the deposited data

Results flagged for a closer look

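The E2 effect on Ndst1 in tamoxifen-treated cells minus that in vector control cells was 0.52 ± 0.20 on the log2 scale, which failed the correction (edgeR, unadjusted p = 0.0200, adjusted p = 0.99996), and it is given because the 2 effects ran in opposite directions in every pair. Ndst1 was higher in Tamo_E2 than in Tamo in 3 of 3 same-numbered pairs, with 6.47, 6.56 and 6.89 FPKM in Tamo_E2, against 6.004, 6.33 and 5.18 FPKM in Tamo. It was lower in NC_E2 than in NC in 3 of 3, with 5.14, 5.49 and 4.52 FPKM in NC_E2, against 6.54, 6.84 and 5.62 FPKM in NC. The difference stayed between 0.44 and 0.59 in 33 alternatives and failed the correction in each of them, with an adjusted p of 0.382 or more.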

How the results depend on the processing

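The number of the 7 genes passing was 0 in every E2 and inhibitor comparison under all 33 alternatives, and 3 for SH against NC over both E2 conditions was within 1.5 times in all 33. It was 1 for SH against NC with the libraries of that comparison alone (2 in the full set), 1 for SH_E2 against NC_E2 on replicates 2 and 3 alone (3 in the full set), and 5 for the SH arm against the ICI and Tamo arms both with the replicate block and on replicates 2 and 3 alone (3 in the full set). Leaving out 1 library gave 2 to 2 for SH against NC, 2 to 3 for SH_E2 against NC_E2, 3 to 3 over both, 3 to 4 against the ICI and Tamo arms and 0 to 0 elsewhere. The replicate block brought Ndst1 (0.40, SH against NC) and Glce (-0.28, over both) past the threshold. For Glce, replicate 2 of SH_E2 against NC_E2 fell just under the 0.1 used for pairing (r = 0.097). Signs turned for 2 genes that did not pass: leaving out 1 library gave Hs6st1 -0.19 to 0.065 in SH against NC and -0.22 to 0.061 in SH_E2 against NC_E2, and Gusb -0.10 to 7.13e-05 over both, while limma gave Gusb 0.0061 and 0.0063 with pseudocounts of 1 and 0.1. Among all genes, SH against NC had 1105 passing, 2572 with the block and 557 with its own libraries alone; SH_E2 against NC_E2 had 1168, 2667 with the block, 747 on replicates 2 and 3 and 554 with its own libraries; over both had 2517 and 4293 with the block. The causes were not tested. At about 54.2 M estimated counts per library, Ext1 and Hs3st1 stayed at the limit of detection.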
